A study of Mus musculus with 12 samples.

Results

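The genes described here are 10 genes of the prostaglandin and leukotriene pathway in macrophages sorted from mouse tumours, namely Ptgs1, Ptgs2, Ptges, Tbxas1, Ptger2, Ptger4, Alox5, Alox5ap, Lta4h and Ltc4s. They were taken by gene symbol from the unprocessed array data. Of these genes 9 had at least 1 probe, with 18 of the 46237 probes between them, and Ptgs1, which encodes the cyclooxygenase COX-1, was not analysed here because no probe carried its symbol. The macrophages were sorted for high CD11b, an integrin of myeloid cells, from PyMT breast tumours (female mice) and from MCA fibrosarcomas (male mice), all labelled C57BL/6. They were wild type (WT) or knockout (KO) for S1PR1, a receptor for the lipid sphingosine-1-phosphate, and the labels do not say which cells lacked it or how old the mice were. The series asks which genes depend on S1PR1. Each of the 4 groups WT_PyMT, KO_PyMT, WT_MCA and KO_MCA had 2 arrays of pooled cells, and the other 4 of the 12 arrays were mixed controls (1 of PyMT and 2 of MCA macrophages) and a repeat of KO_MCA replicate 1.

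Both arms of the pathway start from arachidonic acid released from membranes. Cyclooxygenases turn it into prostaglandin H2, from which terminal synthases make prostaglandin E2 or thromboxane, and prostaglandin E2 acts on cells through receptors such as EP2 and EP4. In the other arm 5-lipoxygenase, helped by its activating protein, makes leukotriene A4, which is turned into the neutrophil attractant leukotriene B4 or the cysteinyl leukotriene C4. Macrophages are known to run both arms, and COX-2 in particular is induced by inflammatory stimuli.

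The windows around the transcription start are shown for Ptgs2, Tbxas1 and Ltc4s. By the brightest probe these were the 3 tested genes with the largest fitted difference between the tumours. None of those differences passed the test, and the other Tbxas1 probes went the opposite way. Whether any motif bears on the levels was not tested. Each window runs from 250 bases before to 50 bases after the start, 5′ to 3′ on the gene's strand, from RefSeq on GRCm38.p6, where 9 of the 10 genes had an entry. Ptgs2 is at chr1:150099781-150100080 on the plus strand, Tbxas1 at chr6:38918736-38919035 on the plus strand and Ltc4s at chr11:50238483-50238782 on the minus strand. Capitals mark matches to any of 8 motifs searched on both strands.
Ptgs2: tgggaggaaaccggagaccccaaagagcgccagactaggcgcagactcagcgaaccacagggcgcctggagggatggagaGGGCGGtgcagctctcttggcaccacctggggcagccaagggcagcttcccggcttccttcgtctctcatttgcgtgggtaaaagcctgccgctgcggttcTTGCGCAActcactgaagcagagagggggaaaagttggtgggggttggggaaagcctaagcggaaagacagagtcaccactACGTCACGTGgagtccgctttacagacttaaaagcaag
Tbxas1: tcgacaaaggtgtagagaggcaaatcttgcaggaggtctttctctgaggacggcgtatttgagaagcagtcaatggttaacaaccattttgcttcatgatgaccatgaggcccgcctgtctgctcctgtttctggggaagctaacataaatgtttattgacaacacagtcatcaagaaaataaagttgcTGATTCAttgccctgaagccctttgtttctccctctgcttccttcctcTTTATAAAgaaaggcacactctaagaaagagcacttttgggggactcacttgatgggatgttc
Ltc4s: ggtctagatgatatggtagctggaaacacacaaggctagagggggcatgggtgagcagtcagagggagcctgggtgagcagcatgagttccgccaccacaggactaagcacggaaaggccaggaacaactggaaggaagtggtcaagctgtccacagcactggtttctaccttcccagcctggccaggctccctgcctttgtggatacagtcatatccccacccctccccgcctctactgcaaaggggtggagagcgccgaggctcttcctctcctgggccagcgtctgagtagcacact
The first motif searched was the TATA box, written TATAAA. The E-box was searched as CACGTG, and the core of the cyclic AMP response element, which the factor CREB is known to bind, as TGACGT. The C/EBP site was TTGCGCAA and the AP-1 site, bound by Fos and Jun proteins, was TGANTCA. For NF-kB a common form of its site was searched, for PU.1, a factor of myeloid cells, GAGGAAGT and for the GC box, known to bind Sp1, GGGCGG. The Ptgs2 window held a GC box starting 170 bases and TTGCGCAA starting 69 bases before the start, and an overlapping pair, TGACGT read on the other strand and CACGTG, starting at bases 13 and 17 after it. Of the 32851 promoters of this length, 35.7% held a GC box, 0.183% TTGCGCAA, 7.51% TGACGT and 7.15% CACGTG. The Tbxas1 window held TGATTCA, starting 61 bases before the start, and a TATA box that matched on both strands with overlap, starting 13 and 11 bases before it. TGANTCA occurred in 7.81% and TATAAA in 13.6% of promoters. In the Ltc4s window no motif matched, so these letters are not in this window, and the NF-kB site and GAGGAAGT, found in 0.411% and 3.2% of promoters, matched in none of the 3.

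Levels below are background-corrected, quantile-normalized intensities on a log2 scale, and they are compared between arrays for 1 probe at a time, never between genes. A probe counted as above background on an array where its deposited detection p was under 0.05. A gene was tested where a probe of it passed on 2 or more of the group arrays, which kept 12 of the 18 probes and 7 of the 10 genes here, among 14103 genes in all. Ptges and Ptger4 had no probe past that filter. The brightest such probe stands for a gene. Where 2 arrays make a group, both values are given, in the order of their replicate numbers.

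Across the arrays the median raw signal was 83 to 92.5, and 39.6% to 50.2% of probes were above background. The 1 probe for S1pr1 was above background on 0 of 12 arrays (raw signal 76 to 88.2), so the genotype labels could not be checked. The macrophage markers Itgam, Adgre1, Csf1r and their like, 9 of 9 tested, were above background on all arrays except WT_MCA replicate 1, where 8 were. The SD of the log2 difference between the 2 arrays of a group was 0.766 in KO_PyMT, 0.589 in WT_PyMT, 0.482 in WT_MCA and 0.373 in KO_MCA, against 0.283 between KO_MCA replicate 1 and its repeat. In bulk RNA of sorted cells, fewer cells of a type and less RNA per cell cannot be told apart. Tumour type, the sex of the mice and the BeadChip go together in the 8 group arrays and cannot be told apart either.

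None of the 7 tested genes passed the test in any comparison, by genotype or by tumour. limma called 0 of the 7 in PyMT and 0 in MCA, where 0% of all genes were called (0 of 14103) and 1534 (10.9%) and 219 (1.55%) had an unadjusted p under 0.05. None of the 7 was among those. The difference of the knockout effects between tumours also gave 0 calls among the 7 and 0% among all genes, with 812 genes (5.76%) and none of the 7 at an unadjusted p under 0.05. Over both tumours the count was again 0 with 0% of all genes, and 1 of the 7, Alox5, was among the 716 genes (5.08%) with an unadjusted p under 0.05. Between PyMT and MCA 0 of the 7 were among the 24 genes (0.17%) that limma called. Of the 7, Ptgs2 and Ltc4s were among the 2117 genes (15%) with an unadjusted p under 0.05 in that comparison.

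**Figure D1:**
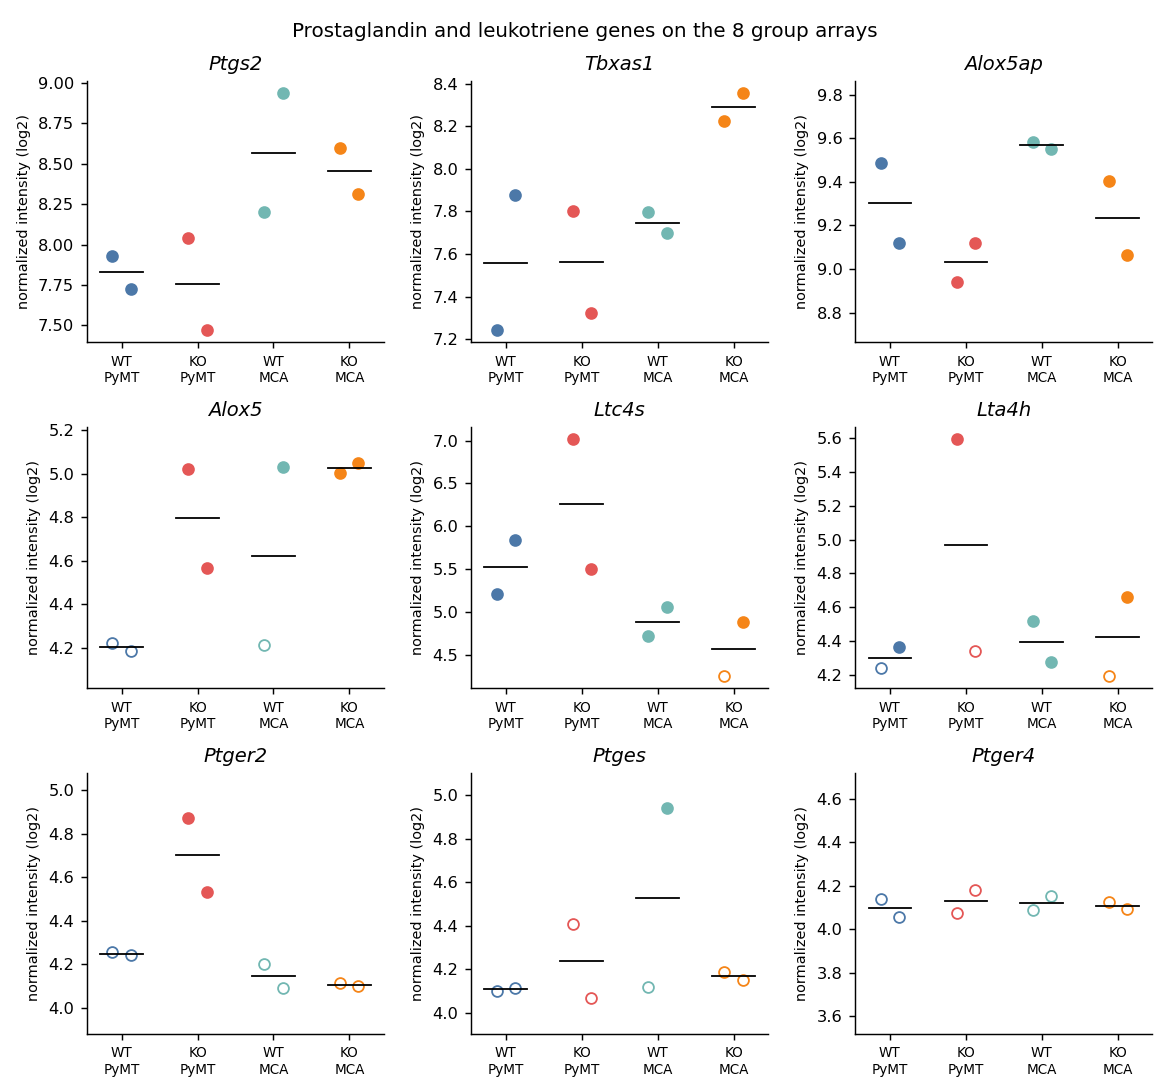
Normalized intensity (log2, own scale in each panel) of 9 pathway genes on the 8 group arrays, 1 probe per gene, with the group mean as a line. Filled points are above background and open points are not, and Ptger4 is open throughout, while Ptgs2 is lower on every PyMT array than on every MCA array.

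Ptgs2, the inducible cyclooxygenase COX-2, was clearly expressed and was the member with the smallest p between tumours. It read 7.93 and 7.73 on the WT_PyMT arrays, 8.04 and 7.47 on KO_PyMT, 8.20 and 8.94 on WT_MCA and 8.60 and 8.31 on KO_MCA. All 4 PyMT arrays lay below all 4 MCA arrays, and within each tumour the genotypes overlapped. The mean was 7.79 in PyMT and 8.51 in MCA, a log2 difference of -0.72 ± 0.21 (SE, 4 arrays per tumour), with a limma unadjusted p of 0.00929 and an adjusted p of 0.192 over all genes. Knockout differed from wild type by -0.07 ± 0.32 in PyMT (95% interval -0.83 to 0.68) and by -0.11 ± 0.32 in MCA (-0.87 to 0.64), both smaller than their SE.

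The tumour difference of Ptgs2 was -0.57 without WT_MCA replicate 2, its brightest array, and -0.86 without WT_MCA replicate 1. The mixed controls read 7.91 in PyMT and 8.68 and 8.08 in MCA, in the same order as the group arrays. The repeat of KO_MCA replicate 1, on the BeadChip of the PyMT arrays, read 8.26 against 8.60 on the other BeadChip. With the BeadChip as a term and the repeat array added, the difference was -0.51 ± 0.35 (limma adjusted p = 0.845), and within the BeadChip of the PyMT arrays it was -0.50. The repeat was the only MCA array on that BeadChip and is labelled identical to KO_MCA replicate 1. Both values therefore lean on that 1 array and are not replicated. Ptgs2 had a further probe that was above background on 0 of 12 arrays, so the values rest on 1 probe.

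WT_MCA replicate 2, the array with the highest Ptgs2, was also the array with the most signal from fibroblast and sarcoma markers. Of 12 such markers 10 were tested, and their summed signal on the linear scale was 1878 on that array and 122.9 on WT_MCA replicate 1, 257.9 to 305.8 on KO_MCA, 52.16 to 164.4 on WT_PyMT and 108.4 to 241.3 on KO_PyMT arrays. Col1a1, a collagen of fibroblasts, read 8.91 on WT_MCA replicate 2 and 4.08 to 6.34 on the other group arrays, and Pdgfrb was above background on none of the 8. Their part in the level of Ptgs2 was not tested.

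Ptges encodes microsomal prostaglandin E synthase-1, the inducible terminal synthase that works with COX-2. Both of its probes were above background on 1 of the 8 group arrays, WT_MCA replicate 2, with raw signals of 105 and 114. On the other 7 group arrays the raw signals were 80.6 to 91.9 for the first and 80.6 to 86.0 for the second probe, none of which passed as above background. The 2 MCA mixed controls were above background for the second probe, at 91.3 and 89.5, and not for the first. Ptges was therefore not tested, and its only group array above background was the one with the summed fibroblast and sarcoma marker signal of 1878. That sum was 276.8 and 590.5 on the MCA mixed controls, which passed for the second probe. It was 257.9 and 305.8 on the KO_MCA arrays, which did not. The part of these markers in Ptges was not tested.

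**Figure D2:**
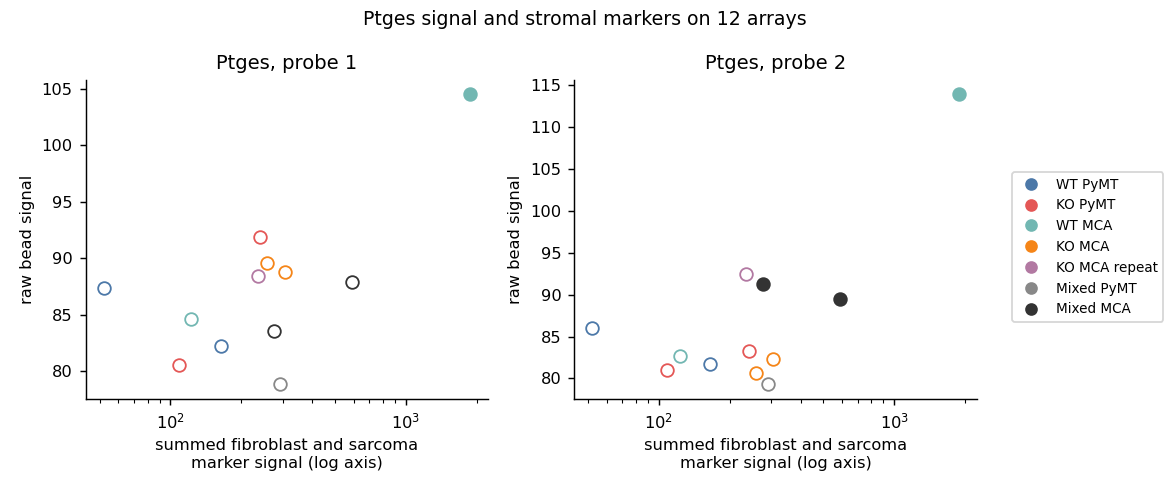
Raw bead signal of the 2 Ptges probes against the summed signal of the tested fibroblast and sarcoma markers (log axis) on 12 arrays, filled where the probe was above background. WT_MCA replicate 2 stands apart on both axes, at 1878 on the marker axis and at 105 and 114 on the probe axes.

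Tbxas1, thromboxane A synthase, was above background on all 12 arrays with all 4 of its probes. The brightest probe read 7.24 and 7.88 on WT_PyMT, 7.80 and 7.32 on KO_PyMT, 7.80 and 7.70 on WT_MCA and 8.23 and 8.36 on KO_MCA arrays. Both KO_MCA arrays were above both WT_MCA arrays, and in PyMT the genotypes overlapped. In MCA the difference was 0.54 ± 0.28 (SE, 2 arrays per group, limma adjusted p = 1), and in PyMT it was 0.00 ± 0.28 (adjusted p = 1.00). The difference between those effects was -0.54 ± 0.39 (limma adjusted p = 0.931).

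The 4 Tbxas1 probes did not give 1 answer. In MCA all 4 were higher in knockout, by 0.54, 0.12, 0.50 and 0.57 in probe order. In PyMT the same probes gave 0.00, 1.03, -0.54 and 0.42. Between tumours the brightest probe was lower in PyMT (-0.46 ± 0.21), while the other probes were higher, by 0.21, 0.59 and 0.99, and the mean of the probes gave 0.33 ± 0.13 (limma adjusted p = 0.278). Per the platform annotation, the first 2 probes were designed on the RefSeq transcript and the other 2 on cDNA clones, and which part of the gene each covers was not analysed here.

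**Figure D3:**
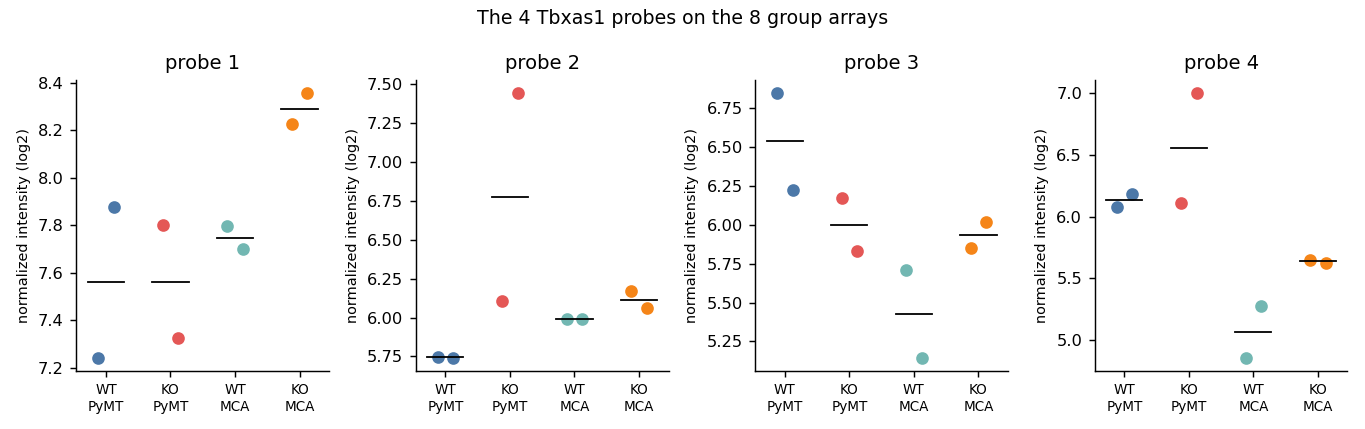
Normalized intensity (log2, own scale in each panel) of the 4 Tbxas1 probes on the 8 group arrays, with the group mean as a line. KO_MCA means lie above WT_MCA means in all 4 panels, whereas the PyMT groups differ in their order and their place relative to MCA from probe to probe.

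Thromboxane synthase is also known from platelets. Of 10 platelet and megakaryocyte markers 7 were tested, with summed signals of 84.73 to 214.4 on WT_PyMT, 169.8 to 238.3 on KO_PyMT, 276.2 to 326.7 on WT_MCA and 238.9 to 301.5 on KO_MCA arrays. Pf4 and Gp9 were above background on all 8 group arrays, and Gp1bb and Treml1 on none. The sum followed Pf4, which read 5.26 to 7.14 on PyMT and 7.29 to 8.11 on MCA arrays. Gp9 overlapped between the tumours, at 5.43 to 7.10 in PyMT and 5.83 to 6.75 in MCA, as did the sum without Pf4, at 45.19 to 138.1 and 65.67 to 120.4. The brightest Tbxas1 probe overlapped between the tumours as well, while the last Tbxas1 probe was higher on every PyMT array. The part of these markers in either probe was not tested.

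The prostaglandin E receptor genes were at or near background. Ptger4, which encodes EP4, was above background on 0 of 12 arrays, with raw signals of 81.6 to 86.8 on the group arrays, and has no fold. Ptger2, which encodes EP2, read 4.87 and 4.53 on the KO_PyMT arrays, which were above background, and 4.26 and 4.24 on WT_PyMT, 4.20 and 4.09 on WT_MCA and 4.11 and 4.10 on KO_MCA arrays, which were not. Both KO_PyMT arrays thus stood above the other 6 group arrays, among which values below background have no order.

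Ptger2 was at least 1.36-fold higher in KO_PyMT than in WT_PyMT, a bound that puts each dim array at the higher of its own value and the lowest signal among probes above background there. The probe passed the filter through the KO_PyMT arrays alone, so a difference of that group was fixed by the filter, and the bound and the fitted difference of 0.45 ± 0.19 (SE, 2 arrays per group) are given as a description. Without KO_PyMT replicate 1 that difference was 0.28, and without KO_PyMT replicate 2 it was 0.62. The raw signals on the KO_PyMT arrays were 98.9 and 91.2, and 1 WT_PyMT array read 91.9 without passing as above background. The PyMT mixed control was below background for Ptger2 and 1 MCA mixed control, at 4.73, was above it, and a further Ptger2 probe was above background on 0 of 12 arrays.

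**Figure D4:**
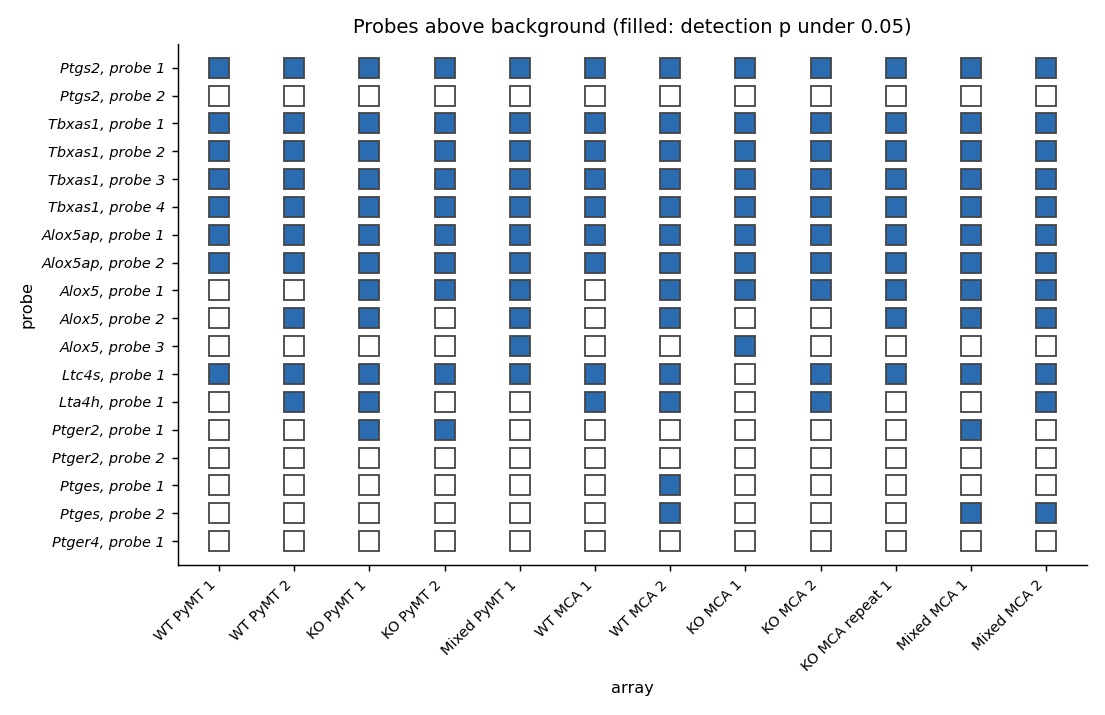
Detection of the 18 probes of 9 pathway genes (probes numbered from the brightest, by gene) on 12 arrays, filled where the deposited detection p was under 0.05. Ptgs2 probe 1, all Tbxas1 probes and both Alox5ap probes are filled throughout, and Ptger4, Ptgs2 probe 2 and Ptger2 probe 2 are empty throughout.

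Alox5ap, the 5-lipoxygenase activating protein FLAP, was above background on every array and lower in knockout in each tumour without passing the test. It read 9.49 and 9.12 on WT_PyMT, 8.94 and 9.12 on KO_PyMT, 9.59 and 9.55 on WT_MCA and 9.40 and 9.06 on KO_MCA arrays. Both knockout arrays lay below both wild-type arrays in each tumour, in PyMT with the nearest pair both at 9.12. The differences were -0.27 ± 0.22 in PyMT (limma adjusted p = 0.713), -0.34 ± 0.22 in MCA (adjusted p = 1) and -0.30 ± 0.15 over both tumours (4 arrays per genotype, adjusted p = 0.931). With 1 array left out the PyMT value ranged from -0.46 to -0.09 (the latter without WT_PyMT replicate 1) and the MCA value from -0.51 to -0.16 (the latter without KO_MCA replicate 2). A further probe gave -0.02 in PyMT and -0.56 in MCA.

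Alox5, the 5-lipoxygenase itself, was near background. Its brightest probe read 4.22 and 4.18 on WT_PyMT, both below background, 5.02 and 4.57 on KO_PyMT, 4.21 (below background) and 5.03 on WT_MCA and 5.01 and 5.05 on KO_MCA arrays. The KO_PyMT arrays were above the WT_PyMT arrays, at least 1.45-fold, and in MCA WT replicate 2 lay within the range of the knockout. The fitted difference was 0.59 ± 0.30 in PyMT (limma adjusted p = 0.562), 0.40 ± 0.30 in MCA (adjusted p = 1) and 0.50 ± 0.20 over both (4 arrays per genotype, unadjusted p = 0.0411, adjusted p = 0.931).

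The knockout values of Alox5 depended on the probe. A second probe, above background on 3 of 8 group arrays, gave 0.16 in PyMT and -0.27 in MCA, and its value across the tumours was -0.06. A further probe was above background on 1 group array, KO_MCA replicate 1. On that sample's repeat array the brightest probe read 4.69 in place of 5.01. The PyMT mixed control, at 5.53, was brighter than all 8 group arrays. Neutrophils also carry Alox5, and 9 of 13 neutrophil markers were tested, with summed signals of 155 to 184 on WT_PyMT, 156.5 to 380.9 on KO_PyMT, 76.76 to 147.1 on WT_MCA and 90.72 to 229.2 on KO_MCA arrays. The highest sum, on KO_PyMT replicate 1, came mostly from Csf3r, the receptor of a granulocyte growth factor, with 255.4 of the 380.9. Without Csf3r the sum was 125.6 on that array and highest on KO_MCA replicate 2, at 176.8. S100a8 was above background on 1 of the 8 group arrays, WT_MCA replicate 2, and Retnlg and Cxcr2 on none. S100a9 was above background on 5 of the 8. It read 7.15 on KO_MCA replicate 2 and 4.16 to 6.39 on the other group arrays. The part of neutrophil RNA in Alox5 was not tested.

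Lta4h, the hydrolase that makes leukotriene B4, had 1 probe, designed on a cDNA clone per the platform annotation. That probe was above background on 5 of 8 group arrays. It read 4.24 and 4.36 on WT_PyMT, 5.60 and 4.34 on KO_PyMT, 4.52 and 4.27 on WT_MCA and 4.19 and 4.66 on KO_MCA arrays. KO_PyMT replicate 1 stood alone above the other 7, which overlapped. The PyMT difference of 0.67 ± 0.41 (SE, 2 arrays per group, limma adjusted p = 0.634) became 0.04 without that array and 1.30 without KO_PyMT replicate 2. In MCA it was 0.03 ± 0.41 (adjusted p = 1).

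Ltc4s, the synthase of leukotriene C4, had the widest spread of group means among the 7 genes and read higher in PyMT. It read 5.21 and 5.84 on WT_PyMT, 7.02 and 5.51 on KO_PyMT, 4.72 and 5.06 on WT_MCA and 4.25 and 4.89 on KO_MCA arrays, with KO_MCA replicate 1 below background. All 4 PyMT arrays lay above all 4 MCA arrays. The mean was 5.90 in PyMT and 4.73 in MCA, a log2 difference of 1.17 ± 0.39 (SE, 4 arrays per tumour, 2.24-fold), with a limma unadjusted p of 0.0171 and an adjusted p of 0.230. It was 0.76 without KO_PyMT replicate 1 and 0.93 without KO_MCA replicate 1.

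The mixed controls did not keep that order for Ltc4s. The PyMT control read 5.48, and the MCA controls read 6.16 and 4.78, the first of them above 3 of the 4 PyMT group arrays. The repeat of KO_MCA replicate 1 was above background at 4.68, against 4.25. With the BeadChip as a term the difference was 1.32 ± 0.64 (limma adjusted p = 0.773), and within the BeadChip of the PyMT arrays 1.58, where that repeat was the only MCA array. Knockout differed by 0.74 ± 0.51 in PyMT (adjusted p = 0.677), where it was -0.02 without KO_PyMT replicate 1, and by -0.32 ± 0.51 in MCA (adjusted p = 1), and the effects differed by 1.06 ± 0.73 (limma adjusted p = 0.930).

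Leukotriene C4 is also a product of mast cells, basophils and eosinophils. Of 17 of their markers 8 were tested, and the summed signal was 73.64 to 156.2 on WT_PyMT, 36.92 to 96.15 on KO_PyMT, 118 to 386.6 on WT_MCA and 169.7 to 313.5 on KO_MCA arrays. Mcpt4, Ms4a2, Il4, Prg2 and Siglecf were above background on 0 of the 8 arrays, and Hdc on all 8. The sum was mostly Hdc on 6 of the 8 arrays, and without Hdc it was 18.68 to 42.92. Other marker sums were higher in PyMT, as Ltc4s was. The 6 tested of 7 dendritic cell markers summed to 117.6 to 272.1 on PyMT and 40.04 to 79.35 on MCA arrays, with Zbtb46 above background on none, and the 6 tested of 11 epithelial markers to 145.7 to 357.8 and 61.88 to 75.56. Of the dendritic cell markers, Siglech read 6.62 to 7.83 on PyMT and 5.34 to 5.89 on MCA arrays, and Itgae was also higher on every PyMT array. Flt3, Xcr1, Clec9a and Ccr7 overlapped between the tumours. Of the epithelial markers, Cdh1 read 6.43 to 8.23 on PyMT and 5.99 to 6.34 on MCA arrays, and Csn3 was also higher on every PyMT array. Epcam, Krt8, Krt18 and Krt14 overlapped between the tumours, and Csn2, Wap and Elf5 were above background on no group array. KO_PyMT replicate 1, with the highest Ltc4s, also had the highest sum of the 2 tested B cell markers, at 126.3 against 8.824 to 51.83 on the other group arrays. That sum was mostly Cd79b, at 7.09 against 4.50 to 6.01 on the others. Ms4a1 read 4.44 on KO_PyMT replicate 1 and 4.51 on WT_MCA replicate 2, and Pax5 was above background on no group array. The part of these cell types in Ltc4s was not tested.

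**Figure D5:**
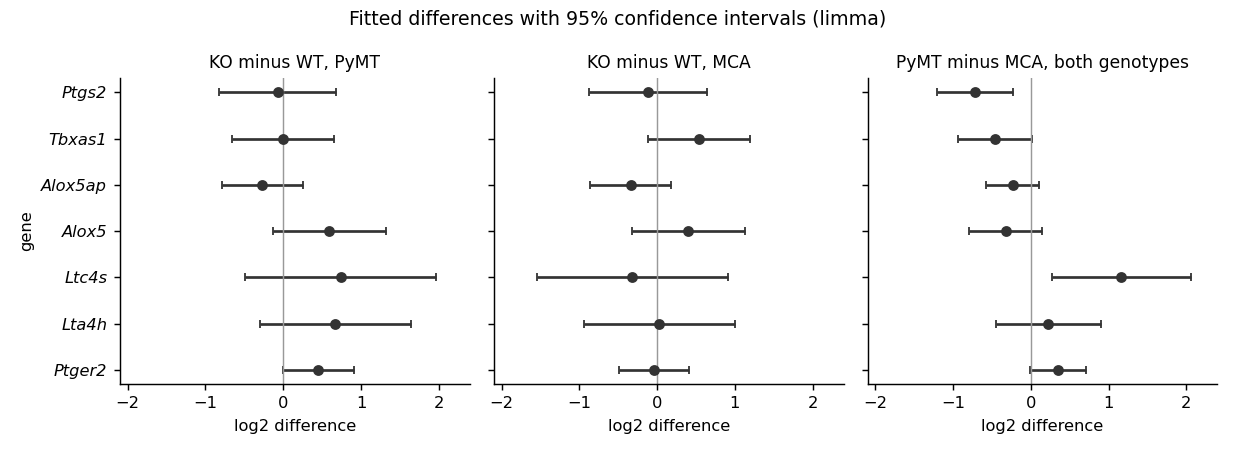
Fitted log2 differences of the 7 tested genes with 95% confidence intervals (limma), for knockout minus wild type in PyMT and in MCA and for PyMT minus MCA over both genotypes. The Ptger2 probe passed the filter through KO_PyMT alone, intervals of the knockout panels all cross 0, and in the tumour panel those of Ptgs2 (-1.21 to -0.23) and Ltc4s (0.27 to 2.06) do not.

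Ptger2 is left out of the counts of genes whose arrays did not overlap, since the filter kept it through 1 group alone. Of the 6 other tested genes, 2 had knockout and wild-type arrays that did not overlap in PyMT (Alox5 higher in knockout, Alox5ap lower), where 35.7% of all genes had none. In MCA there were 2 of 6 (Tbxas1 higher, Alox5ap lower) against 30.8%, and over both tumours 0 of 6 against 2.41%. Those shares lie near the background. Between tumours 2 of 6 did not overlap (Ltc4s higher in PyMT, Ptgs2 lower) against 10.4%. All of these counts take the brightest probe of a gene. They leave out other probes, such as the last Tbxas1 probe, which was higher in PyMT without overlap.

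Other genes of eicosanoid metabolism, from phospholipases to receptors, formed a list of 55, of which 41 were tested, 11 had only probes below the filter and 3 had no probe. limma called 0 of the 41 in each of the 5 comparisons. At an unadjusted p under 0.05 there were 2 higher and 4 lower in PyMT knockout, 0 and 1 in MCA knockout, 2 and 2 over both tumours, 2 and 2 for the difference of the knockout effects, and 4 higher and 3 lower in PyMT than in MCA. As shares of the 41 these were 14.6%, 2.44%, 9.76%, 9.76% and 17.1%, beside 10.9%, 1.55%, 5.08%, 5.76% and 15% of all genes. The medians were -0.05 in PyMT knockout, -0.03 in MCA knockout and 0.08 between tumours.

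Among export and leukotriene-conjugating genes, Abcc1, which encodes the leukotriene C4 exporter MRP1, had the smallest p in PyMT. It read 4.20 and 4.72 on WT_PyMT arrays and 5.68 and 6.00 on KO_PyMT arrays, with WT_PyMT replicate 1 below background. The groups did not overlap and differed by 1.38 ± 0.27 (SE, 2 arrays per group, limma adjusted p = 0.172), but a further Abcc1 probe gave -0.34. Mgst3, a microsomal glutathione transferase, read 4.47 and 4.26 on WT_PyMT and 5.64 and 5.23 on KO_PyMT arrays, with WT_PyMT replicate 2 below background. It differed by 1.07 ± 0.25 (limma adjusted p = 0.212), and its other probe gave 0.07. Over both tumours Abcc1 differed by 0.81 ± 0.27 and Mgst3 by 0.65 ± 0.22 (SE, 4 arrays per genotype, limma adjusted p = 0.931 for both). The effects on Abcc1 in the tumours differed by 1.15 ± 0.39 (limma adjusted p = 0.746).

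Ptgir, the prostacyclin receptor, ran the other way. It read 6.02 and 5.10 on WT_PyMT and was below background on both KO_PyMT arrays, at least 2.36-fold lower in knockout. The fitted log2 difference was -1.31 (limma adjusted p = 0.274), against undetected arrays, and -0.85 without WT_PyMT replicate 1. In MCA the difference of Ptgir was -0.0076. The prostaglandin reductase Ptgr2 was 0.43 ± 0.21 higher in MCA knockout and 0.50 ± 0.21 lower in PyMT knockout, and the carbonyl reductase Cbr1 was 0.41 ± 0.21 higher in MCA knockout. The limma adjusted p was 1 in MCA for both and 0.471 for Ptgr2 in PyMT.

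Between tumours the smallest p in the list belonged to Hpgds, the haematopoietic prostaglandin D synthase. Its 4 PyMT arrays read 6.90 to 7.24 and its 4 MCA arrays 6.23 to 6.76, without overlap, a log2 difference of 0.61 ± 0.12 (SE, 4 arrays per tumour, limma adjusted p = 0.112), and its other probe gave 0.75. Hpgds was also 0.43 ± 0.17 lower in MCA knockout (limma adjusted p = 1) and 0.35 ± 0.12 lower over both tumours (limma adjusted p = 0.931). Fpr2, a formyl peptide receptor that also binds lipoxin A4, read 4.73 to 7.42 in PyMT and 7.66 to 8.54 in MCA, a difference of -2.23 ± 0.54 (limma adjusted p = 0.140). Without KO_PyMT replicate 1, its brightest PyMT array, that was -2.86 (limma adjusted p = 0.00647), past the threshold. The thromboxane receptor Tbxa2r differed by 0.50 ± 0.15 (limma adjusted p = 0.197), with 1 of the 4 MCA arrays above background.

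The genes whose pattern over the 8 group arrays was most like that of the 3 members with the widest group means were found by Pearson's r of the log2 values, as a description over 8 arrays that share group and BeadChip. They were Ctcfl (0.975), Tctex1d4 (0.973) and Gm5115 (0.963) for Ltc4s. For Alox5 they were Lmna (0.979), Cox7a2l (0.957) and Aox4 (0.933), and for Ptgs2 they were Rassf3 (0.984), Pigf (0.977) and Bbs5 (0.957). Each r was picked as among the highest over the 14103 tested genes. The Alox5 probe was above background on 5 of the 8 arrays, and values below background have no order.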

How the data were processed

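Per the file headers, the deposited intensity is the mean bead signal per probe on a linear scale, not normalized. The p-value deposited beside it tests signal against background, by a test the sources used here do not name. A second deposited table holds linear intensity normalized by the authors (method not stated in the sources here), which served as an alternative. Per the labels' protocols, RNA of pooled sorted cells was amplified, and 2 amplification systems are named without saying whether both served every sample.

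neqc of limma 3.58.1 in R 4.3.3 corrected background (offset 16), quantile normalized all 12 arrays and took log2. Of 46237 probes 35784 had a gene symbol and 0 had several, from the platform annotation, and 937 symbols were updated through RefSeq. A probe was kept if its detection p was under 0.05 on 2 or more group arrays, and a gene's brightest kept probe stood for it. A 4-group model tested knockout in each tumour and the difference of those effects, and an additive model tested genotype and tumour. P-values were two-sided and adjusted by the Benjamini-Hochberg method over 14103 genes, and a gene was called under 0.05. The analysis was tested on simulated data. The labels do not say whether arrays of a group came from separate animals, so the p-values measure only the spread between arrays, which may be technical. Alternatives covered background, normalization, filter, probes, array weights, single arrays and the BeadChip.

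The members and lists were chosen with earlier results of these data known. All 10 genes are reported whatever their values. Other eicosanoid genes are named where they had 1 of the 3 smallest p of a comparison. The smallest number of arrays per group, 2, limits the precision. The main models did not pair arrays by replicate number.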

Additional observations from a re-analysis of the deposited data

Results flagged for a closer look

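In the list of other eicosanoid genes, 3 had knockout and wild-type arrays that did not overlap in either tumour, in opposite directions. That is 7.32% of the 41 tested, beside 5.35% of all genes, and the count in the same direction was 2 of 41 (Hpgds and Prxl2b, both lower in knockout), or 4.88% beside 5.82%. Ltb4r1, the high-affinity leukotriene B4 receptor, was 0.60 ± 0.32 higher in PyMT knockout and 0.34 ± 0.32 lower in MCA knockout, and the effects differed by 0.94 (limma adjusted p = 0.892). Ptgds, a prostaglandin D synthase, was 0.41 ± 0.22 lower in PyMT knockout and read 0.09 higher in MCA knockout, where 3 of 4 arrays were below background, and the effects differed by -0.50 (limma adjusted p = 0.925). For Ptgr2 the effects differed by -0.93 (limma adjusted p = 0.724). None of these 3 differences passed the test.

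Among probes that passed no filter, the second Ptges probe was above background on 2 arrays outside the comparisons, the MCA mixed controls. The third Alox5 probe was above background on 1 such array, the PyMT mixed control, at a log2 level of 4.47.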

How the results depend on the processing

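limma called 0 of the 7 members in each of the 5 comparisons under every alternative run. The count of genes called over the whole array moved. In PyMT knockout it was 4 with no detection filter, 6 with the values the authors normalized, 7 with uncorrected background and 0 to 118 with 1 array left out (118 without KO_PyMT replicate 1, 41 without KO_PyMT replicate 2). It was 2 over both tumours without background correction and from the authors' values, and 0 to 1 for the difference of the effects with 1 array left out. Between tumours the 24 became 46 without background correction, 38 with normexp, 43 from the authors' values, 78 under median scaling, 14 among genes above background on all 8 arrays, 44 testing every probe, 3 with the BeadChip as a term and 0 within the BeadChip of the PyMT arrays, and 8 to 31 with 1 array left out (8 without either KO_MCA array, 9 without WT_MCA replicate 2, 14 without WT_PyMT replicate 1). The last 3 choices before that range were made after seeing the data.

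Signs that turned belonged to uncalled values. Tbxas1 in PyMT was -0.0022 without background correction, -0.0013 with normexp and -9e-04 from the authors' values, Ptgs2 in PyMT was 7e-04 under median scaling, and Ltc4s over both tumours was -0.013 with array weights. Between tumours Tbxas1 was 0.33 by the mean of probes, and Alox5 was 0.0637 with the BeadChip as a term and 0.111 within 1 BeadChip. With 1 array left out the ranges in PyMT were -0.0193 to 1.49 for Ltc4s, -0.32 to 0.32 for Tbxas1 and -0.36 to 0.21 for Ptgs2. In MCA they were -0.20 to 0.26 for Lta4h, -0.48 to 0.26 for Ptgs2, -0.0063 to 0.81 for Alox5 and -0.10 to 0.0146 for Ptger2. For the difference of the effects they were -0.22 to 0.60 for Alox5, -0.33 to 0.41 for Ptgs2 and -0.12 to 0.24 for Alox5ap. Over both tumours they were -0.20 to 0.44 for Ltc4s and -0.24 to 0.0588 for Ptgs2, and between tumours -0.0892 to 0.41 for Lta4h. Hpgds passed between tumours without background correction (0.37, limma adjusted p = 0.0409) and from the authors' values (0.35, 0.0459). The cause of these changes was not tested. Where 1 array was left out, the remaining array of its group was assumed to vary like the other groups.

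Same-numbered arrays correlated in their deviations at -0.00385 in PyMT and 0.0764 in MCA, both under the threshold of 0.1 set for pairing. The main models therefore left them unpaired, though a low correlation cannot show that same-numbered arrays were unrelated. With the replicate block 0 genes were called in the 4 knockout comparisons, as without it, and between tumours the block could not be fitted because each pair lies within 1 tumour.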
